A study of Nomascus leucogenys with 9 samples.

Results

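Endophilins are a small family of cytoplasmic proteins that bend membranes. Each carries a curved BAR domain that binds lipid bilayers and a terminal SH3 domain that recruits partners such as dynamin, which cuts vesicles free, and synaptojanin, which helps to strip their clathrin coat. The A-type genes SH3GL1, SH3GL2 and SH3GL3 are known for endocytosis at the plasma membrane, and the B-type genes SH3GLB1 and SH3GLB2 for work on intracellular membranes, including mitochondria and autophagosomes. SH3GL2 is best known in neurons, where its protein acts in the recycling of synaptic vesicles. SH3GL1 is expressed broadly and is known in blood as a fusion partner of MLL in leukaemia.

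The family was followed in RNA-seq of B lymphocytes that had been transformed with Epstein-Barr virus and grown as lymphoblastoid cell lines, 1 line from each of 9 northern white-cheeked gibbons (Nomascus leucogenys). The lines carry the names Vok, Ricky, Phyllis, Nancy, Melouprey, Khao, China, Bobby and Asia in the labels, which give no treatment, age or contrast, so all 9 form 1 group. The study concerned LAVA, a retrotransposon of gibbons, and its host use, which was not analysed here. Members were selected by human Ensembl identifier from a list of 5, and 4 of them were among the 15356 rows of the table. The row for SH3GL3 (ENSG00000140600), an A-type gene known from brain and testis, was absent, so it has no value here. SH3GL2 was chosen by its very wide range among these lines, so its spread is given below as a description with no test. The other 3 rows came with it as relatives.

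Levels are the authors' deposited normalized values, taken as log2 units. Back on the linear scale, the column sums ranged from 13728358 to 14059842, and a level in parts per 1000000 (ppm) is a share of its own column's sum. Sequencing depth is unknown, so counting error could not be given. Whether the values were scaled by transcript length is not stated in the sources used, so each gene was compared only with itself across lines. All 4 rows had a mean of at least 1 ppm, the filter that kept 12590 rows, and SH3GL2 exceeded it in every line, with 2.03 ppm at its lowest. In the gibbon RefSeq annotation each of the 5 genes is protein coding, and none is the coding neighbour of another. SH3GL2 lies there between CNTLN and ADAMTSL1, SH3GL1 between CHAF1A and MPND, SH3GLB1 between SELENOF and CLCA4, and SH3GLB2 between NUP188 and MIGA2. None of 22 marker symbols for B, T, NK, myeloid, fibroblast and neuronal cells could be matched to a row, so the labelled cell type was not checked against markers.

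SH3GL2 (ENSG00000107295) was graded over the lines, with 1 line far above the rest. Its level was 13.09 log2 units in Asia, 9.52 in China, 8.10 in Nancy, 6.56 in Vok, 5.94 in Phyllis, 5.14 in Bobby, 4.98 in Khao, 4.86 in Melouprey and 4.84 in Ricky. In ppm the same ends were 626.9 in Asia and 2.03 in Ricky. Asia stood 11.9-fold above China, the next line down, and China stood 2.66-fold above Nancy. Nancy in turn stood 2.92-fold above Vok. The 4 lowest lines lay close together, and no step between neighbours among them exceeded 1.12-fold. They lay between 2.03 and 2.51 ppm, not far above the filter of 1 ppm. Whether the scale of the deposited values draws such low levels together was not tested. With 1 library per line there is no spread within a line against which to judge those steps.

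The mean was 7.003 ± 2.80 log2 units (SD, n = 9), and the full range was 8.26 log2 units, or 306.0-fold. Of the 12590 kept rows, 2 had an SD at least this large, SH3GL2 itself being one of them. Against the row median, Asia was 142.2-fold higher, China 11.9-fold and Nancy 4.48-fold. Ranked by absolute deviation from the row median among all kept rows of the same line, SH3GL2 was number 2 in Asia, number 2 in China, number 67 in Nancy and number 54 in Ricky, where it was low. Without Asia the 8 other lines still spanned 25.6-fold, with an SD of 1.73 log2 units. In bulk RNA, fewer cells carrying a transcript and less of it per cell cannot be told apart, so these values do not say whether all cells of Asia or some of them held the SH3GL2 transcript.

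**Figure D1:**
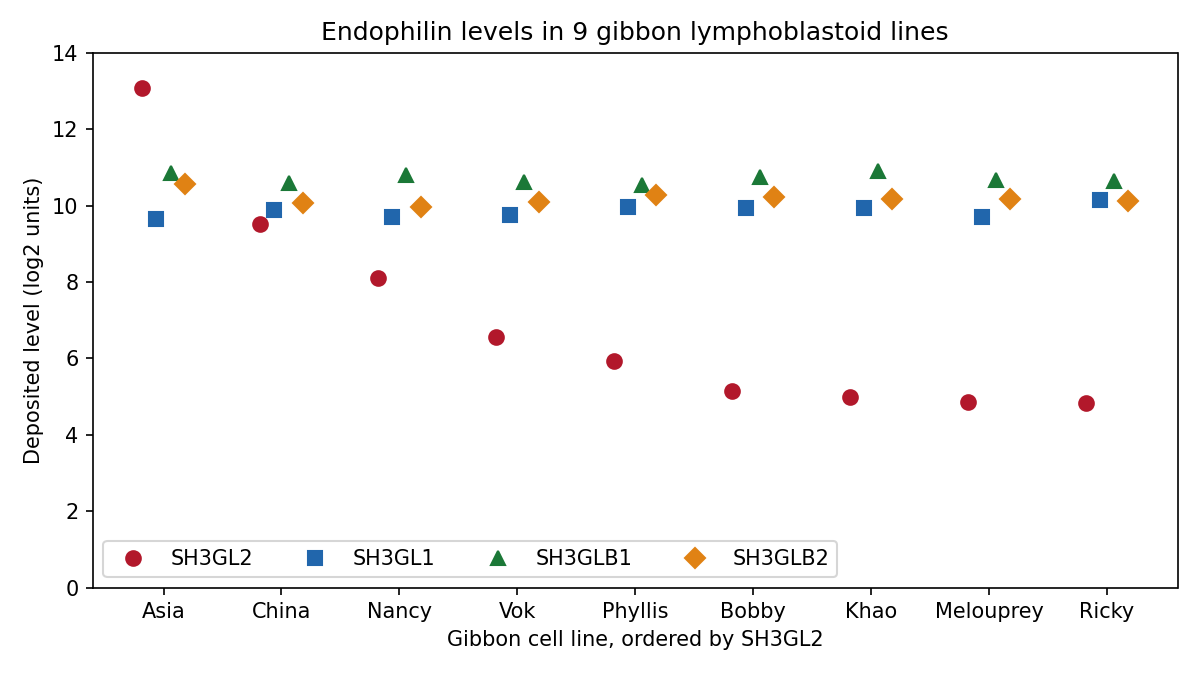
Deposited level of the 4 endophilin rows (vertical axis, log2 units) in each of 9 gibbon lines, ordered along the horizontal axis by SH3GL2; each symbol is 1 library, and levels of different genes should not be compared with each other. SH3GL2 runs from 13.09 in Asia down to 4.84 in Ricky, while the other 3 rows each stay within 0.60 log2 units.

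SH3GL1 (ENSG00000141985), the broadly expressed A-type member, which acts in uptake of receptors from the cell surface, varied little and was lowest in the line where SH3GL2 was highest. It stood at 9.64 log2 units in Asia, 9.95 in Bobby, 9.89 in China, 9.94 in Khao, 9.71 in Melouprey, 9.69 in Nancy, 9.98 in Phyllis, 10.15 in Ricky and 9.75 in Vok. Ricky, the lowest line for SH3GL2, was the highest for SH3GL1. The mean was 9.86 ± 0.17 log2 units (SD, n = 9) and the lines spanned 1.42-fold. Without Ricky the range fell from 0.51 to 0.33 log2 units.

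SH3GLB1 (ENSG00000097033), also known as Bif-1, binds the cell death protein BAX and takes part in autophagy with UVRAG and Beclin. Over all 9 lines it had the narrowest spread of the 4 rows, though without Asia its SD of 0.12 log2 units was above that of SH3GLB2, at 0.097, and without Ricky the SH3GL1 range was below its own. It was highest in Khao, at 10.90 log2 units, and Asia, at 10.87, followed by 10.82 in Nancy, 10.75 in Bobby, 10.67 in Melouprey, 10.64 in Ricky, 10.63 in Vok, 10.59 in China and 10.54 in Phyllis. These values descend in small steps with no line apart, and the lines with high SH3GL2 fell at both ends, Asia near the top and China near the bottom. The mean was 10.71 ± 0.13 log2 units (SD, n = 9) and the span was 1.28-fold.

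SH3GLB2 (ENSG00000148341), the other B-type member, whose protein can pair with that of SH3GLB1, was highest in Asia, at 10.57 log2 units. Below it came 10.29 in Phyllis, 10.22 in Bobby, 10.18 in Khao, 10.17 in Melouprey, 10.11 in Ricky, 10.10 in Vok, 10.08 in China and 9.97 in Nancy. Asia was thus at the top for SH3GLB2 as for SH3GL2, but China and Nancy, which came next for SH3GL2, were the lowest lines for SH3GLB2. The mean was 10.19 ± 0.17 log2 units (SD, n = 9) and the lines spanned 1.51-fold. Without Asia the span was 1.25-fold and the SD fell to 0.097 log2 units.

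The family thus held 1 row of very wide spread and 3 rows that were steadier than the typical row. The median SD of all kept rows was 0.22 log2 units. Of rows with a mean of 10 to 100 ppm, 68.8% had an SD at least as large as SH3GL1 and 67.8% one at least as large as SH3GLB2. Of rows at 100 ppm or more, 81.6% had one at least as large as SH3GLB1. A span of at least 2-fold was reached by 1 of the 4 members, SH3GL2, which was chosen for it, against 26.4% of all kept rows. None of the 3 other rows had a line more than 1.32-fold from its row median, while 5 of the 9 lines were at least 2-fold from the SH3GL2 median. Dixon's gap criterion compares the gap beside the most extreme line with the whole range. By it 0 of the 4 rows, SH3GL2 included, had an outlying line, against 10.1% of kept rows. So few rows cannot be set apart from that share. The ratio was largest in SH3GLB2, at 0.461, below the critical value for 9 lines. For SH3GL2 the ratio was 0.433, also below that value. The ratio divides by the range for which SH3GL2 was chosen, so it is a description only. It does not decide whether Asia, 11.9-fold above the next line, stood apart.

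**Figure D2:**
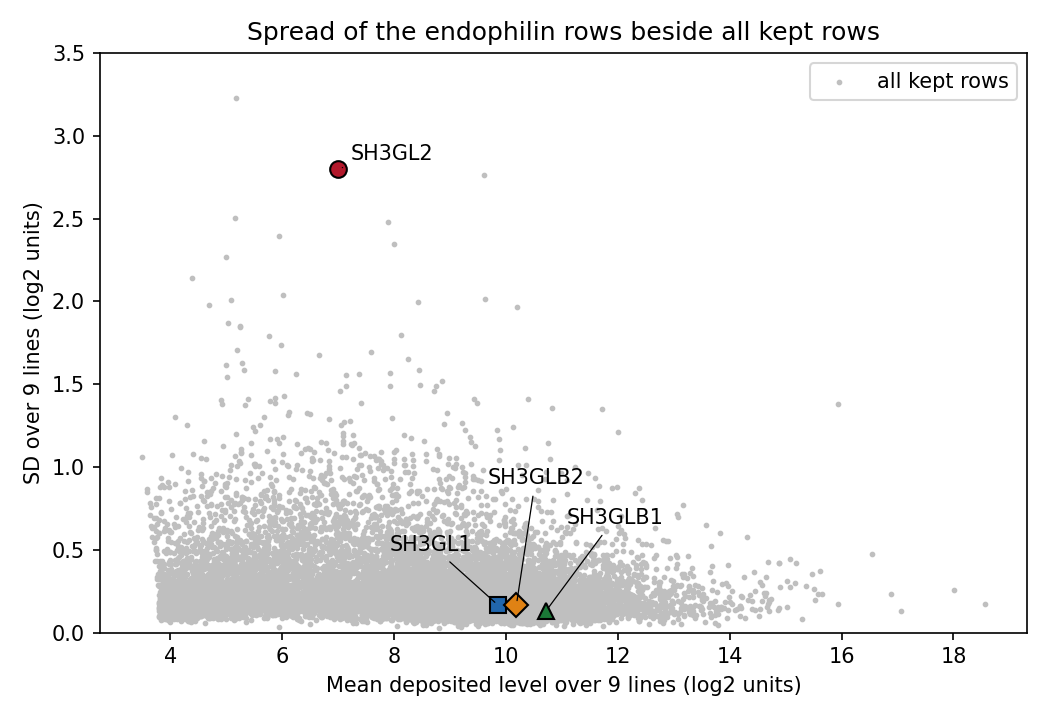
SD over the 9 lines (vertical axis, log2 units) against mean deposited level (horizontal axis, log2 units), with each grey point 1 of 12590 kept rows and coloured symbols the 4 endophilins. SH3GL2 sits near the top at an SD of 2.80, and SH3GL1, SH3GLB1 and SH3GLB2 sit among the low points at 0.17, 0.13 and 0.17.

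Whether the relatives followed SH3GL2 over the lines was asked by correlating every other kept row with SH3GL2, with a two-sided exact permutation test over the 9 lines and Benjamini-Hochberg adjustment over all 12589 rows. None of the 3 relatives passed the threshold of 0.05, against a background of 0% of all rows. SH3GL1 ran against SH3GL2, with r = -0.58 (exact permutation p = 0.10, adjusted p = 0.34) and rho = -0.62 (exact permutation p = 0.086, adjusted p = 0.49). Without Asia and China, the lines farthest from the SH3GL2 median, r was -0.58 over 7 lines, but without Asia alone it was -0.36 over 8 lines (exact permutation p = 0.38). An absolute r at least this large was found in 30.8% of rows, so the inverse order of SH3GL1 and SH3GL2 was not set apart from that of many other rows.

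SH3GLB1 gave r = 0.27 (exact permutation p = 0.50, adjusted p = 0.73) and a rho of 0 (exact permutation p = 1, adjusted p = 1), and without Asia and China r was 0.090. Its level showed no order along SH3GL2 that the ranks retained. SH3GLB2 gave r = 0.50 (exact permutation p = 0.17, adjusted p = 0.43) but rho = -0.05 (exact permutation p = 0.91, adjusted p = 0.97). That positive r rested on Asia: without it r was -0.59 over 8 lines (exact permutation p = 0.13) and rho was -0.50. Without Asia and China r was -0.65 over 7 lines (exact permutation p = 0.12) and rho was -0.29. For SH3GLB1, r without Asia was -0.21.

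**Figure D3:**
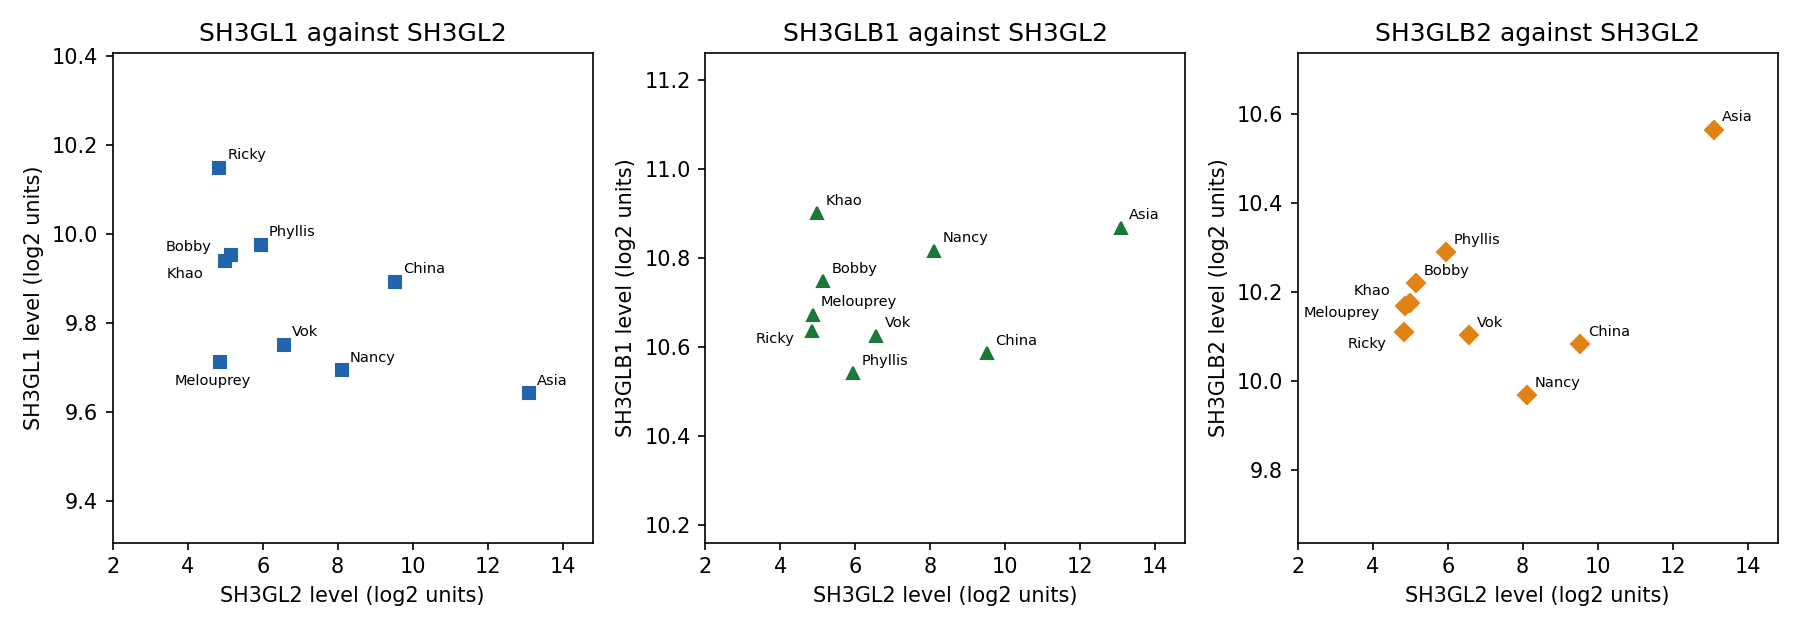
Level of SH3GL1, SH3GLB1 and SH3GLB2 (vertical axes, log2 units, each spanning 1.1 units) against the level of SH3GL2 (horizontal axes, log2 units), 1 labelled point per line. Asia lies far to the right in each panel and is the lowest line for SH3GL1 and the highest for SH3GLB2.

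The 3 relatives did not follow one another past the threshold either. SH3GL1 and SH3GLB1 gave r = -0.37 (exact permutation p = 0.31, adjusted over all rows 0.88; rho = -0.43, p = 0.25, adjusted 0.86). SH3GL1 and SH3GLB2 gave r = -0.20 (exact permutation p = 0.62, adjusted over all rows 0.95) and rho = 0.13 (exact permutation p = 0.74, adjusted 0.95). Without Asia alone r was 0.43 over 8 lines (exact permutation p = 0.28). Without Asia and Ricky, the lines farthest from the SH3GL1 median, r was 0.72 over 7 lines (exact permutation p = 0.069). The B-type pair, SH3GLB1 and SH3GLB2, gave r = 0.26 (exact permutation p = 0.54, adjusted over all rows 0.86) and rho = 0.20 (exact permutation p = 0.61, adjusted 0.93). Without Asia and Khao, the lines farthest from the SH3GLB1 median, r was -0.53 (exact permutation p = 0.23). In the latter 2 pairs the sign of r therefore depended on which lines were counted. A p above the threshold with 9 lines does not show that 2 genes vary independently.

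Many rows of the table ran along with SH3GL2 or against it, although none passed the adjusted threshold. No row passed the adjusted threshold with SH3GL2 by Pearson's r (smallest adjusted exact permutation p = 0.069) or by Spearman's rho (smallest adjusted p = 0.24, where a single row could not have gone below 0.069). At an unadjusted exact permutation p under 0.05, 2595 of 12589 rows (20.6%) were listed with SH3GL2 by Pearson's r and 1263 by Spearman's rho. Of the former, 1622 had a positive r and 973 a negative one. The unadjusted share was 5.57% with SH3GL1, 9.4% with SH3GLB1 and 6.79% with SH3GLB2, and by Spearman's rho it was 10.03% with SH3GL2, 5.47% with SH3GL1, 7.96% with SH3GLB1 and 4.05% with SH3GLB2. The shares of rows listed with SH3GL2 and with SH3GLB1 were thus closer by rank than by Pearson's r. The differences between these shares were not tested. SH3GL2 was chosen for its wide range, which can favour a row that follows the most divergent lines. Its larger share is therefore a description only. Without Asia the count for SH3GL2 was 1423. Rows are not independent of each other, since all share the same 9 libraries.

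**Figure D4:**
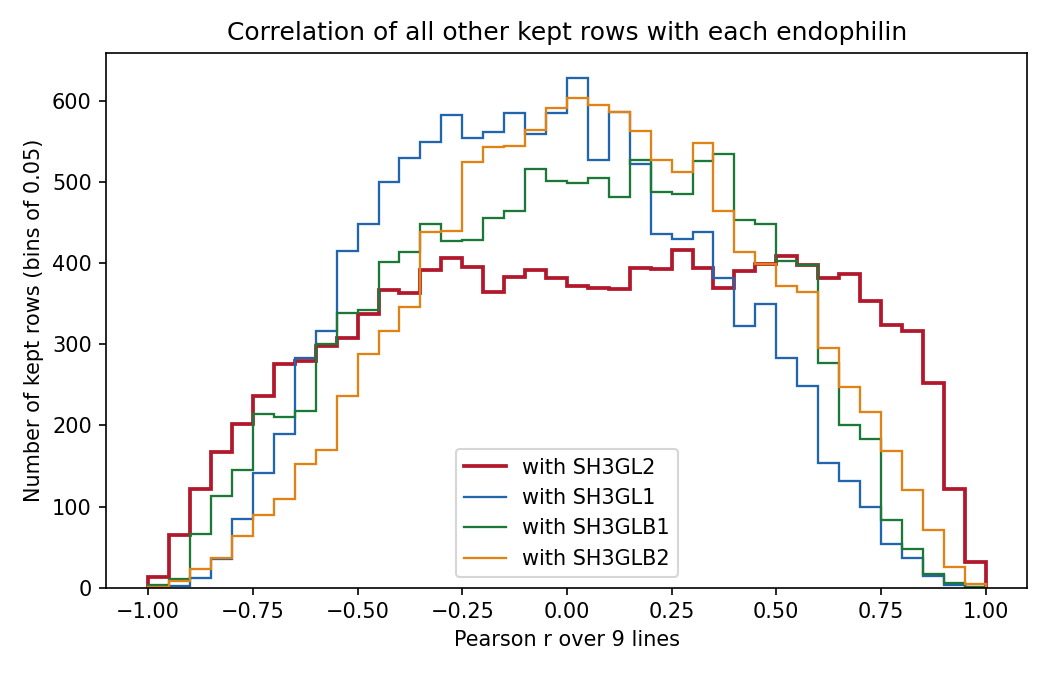
Number of kept rows (vertical axis, bins of 0.05) by their Pearson r over 9 lines (horizontal axis) with each of the 4 endophilins, drawn as outlines. The outline for SH3GL2, the row chosen for its wide range, is flatter and reaches farther toward both ends than the other outlines. The median absolute r over all rows is 0.41 with SH3GL2, 0.29 with SH3GL1, 0.33 with SH3GLB1 and 0.28 with SH3GLB2.

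The 3 lines with the most SH3GL2 also had the highest scores on the main axis of variation of the whole table. The first principal component of the 12586 kept rows other than the endophilins held 33.9% of their variance. Asia scored 47.2 on it, Nancy 20.5 and China 18.7, and the other lines scored between -20.8 and -9.56. Across the 9 lines the SH3GL2 level correlated with that score at r = 0.96 and rho = 0.67, with r = 0.91 without Asia and 0.86 without Asia and China. The score was computed after the pattern had been seen, so no p is given. SH3GL2 was also chosen for its wide range among these same lines. That choice can favour a row that follows the most divergent lines, so r is a description only. For SH3GL1 r was -0.52 and for SH3GLB1 0.38. For SH3GLB2 r was 0.37 with Asia and -0.79 without it. Asia exceeded the row median by 2-fold or more in 428 kept rows and fell short of it by as much in 331, both counts being the highest of the 9 lines. Vok, which was not high on that axis, also departed widely, since its values scattered around the row medians with an SD of 0.40 log2 units, against 0.53 in Asia, 0.42 in Nancy and 0.39 in China. In 733 kept rows (5.82%) Asia, China and Nancy were the 3 highest lines, in 195 of them in the same order as for SH3GL2, and in 509 rows (4.04%) they were the 3 lowest. What these lines share was not tested, and animal, culture, transformation and library preparation, among others, cannot be told apart in this design.

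Among the 3326 other kept rows that spanned at least 2-fold, the pair most like SH3GL2 by Pearson's r over the 9 lines was ENSG00000198168 (r = 0.97, rho = 0.75) and ENSG00000157869 (r = 0.97, rho = 0.68). ENSG00000198168 stood at 8.26 log2 units in Asia, 7.66 in China and 7.17 in Nancy, and between 6.71 and 7.13 elsewhere. ENSG00000157869 stood at 10.84 in Asia, 10.20 in China and 9.98 in Nancy, and between 9.55 and 9.95 elsewhere. Both kept the order of the 3 highest lines of SH3GL2, but with total spans of 2.92-fold and 2.46-fold.

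The rows most opposite to it were ENSG00000124225 (r = -0.98, rho = -0.92) and ENSG00000071054 (r = -0.98, rho = -0.87). ENSG00000124225 was 6.18 log2 units in Asia, 6.85 in China, 7.38 in Nancy and 7.41 in Vok, and between 7.64 and 8.13 in the rest. ENSG00000071054 was 9.66 in Asia, 10.22 in China, 10.62 in Vok and 10.66 in Nancy, and between 11.02 and 11.24 in the rest. In both, the 4 lines with the most SH3GL2 were the 4 lowest. Without Asia r was -0.96 and -0.95 in these rows, and 0.92 in each of the pair above. All 4 rows were picked for their r, which is therefore a description, and their adjusted exact permutation p was 0.069 in each case. The table does not pair identifiers with symbols, so these rows are not named.

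**Figure D5:**
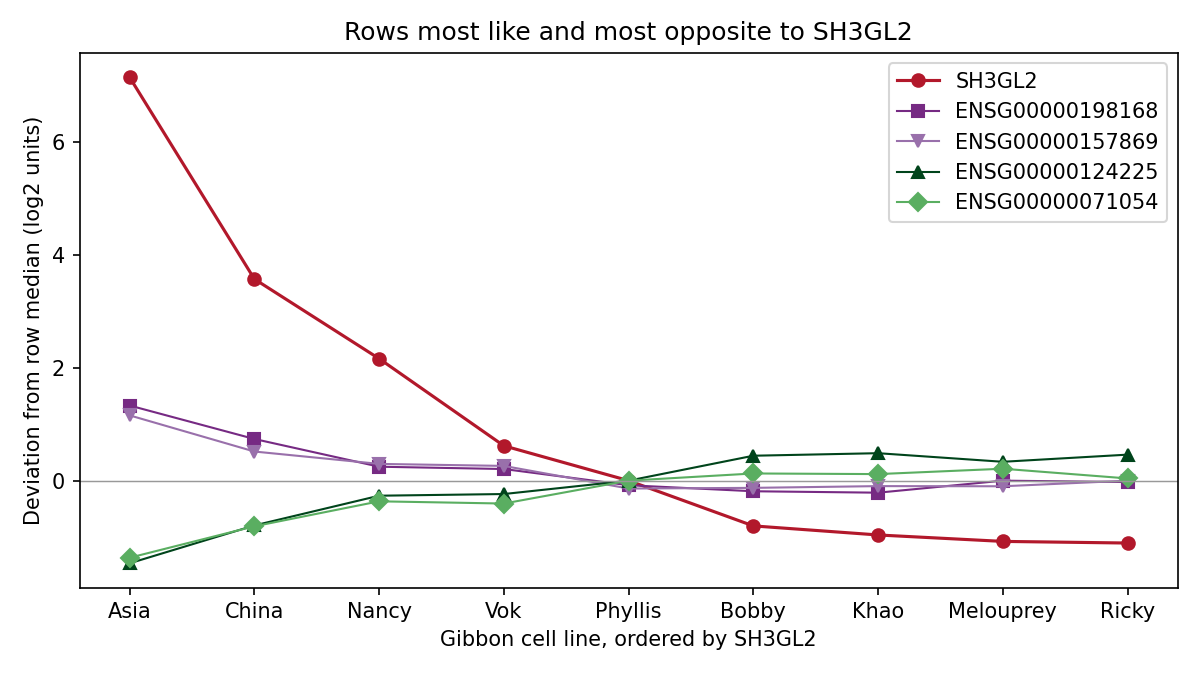
Deviation from the row median (vertical axis, log2 units) of SH3GL2 and of the rows with the highest and lowest Pearson r with it, in 9 lines ordered by SH3GL2 along the horizontal axis. SH3GL2 reaches 7.15 in Asia, where the pair most like it reaches 1.33 and 1.16 and the opposite pair -1.46 and -1.37.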

How the data were processed

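RNA-seq was deposited for 9 lymphoblastoid lines as 1 table of normalized expression on a log scale. The base was taken as log2 because base 2 gives column totals near those of gene counts. The table's own name calls the deposited values normalized, and they are called log2 values here on that assumption. The submitters' processing notes list edgeR, DESeq2, STAR and Trimmomatic without their roles or versions. No source used here gives the build, the annotation or the kind of normalization. If the values were shrunken or rank-scaled, folds are on that scale and depth per library is unknown. Per the labels' protocols, total RNA was extracted and Illumina TruSeq libraries were made. The last header names were split at a space, and columns were matched to lines by name, with 0 per-sample columns unused. Symbols of the 5 endophilins came with the identifiers. None of the 72 symbols of 2 partner lists (endocytosis, autophagy) and of the cell type markers matched a row, because the RefSeq table (Asia_NLE_v1) holds no Ensembl identifiers, so those lists were not analysed.

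The filter on low rows was a mean share of 1 ppm or more of the column sums. Pearson and Spearman correlations were tested with two-sided exact permutation over all 362880 orders of the lines and Benjamini-Hochberg adjustment over all kept rows, in Python 3.11.15 with numpy 2.4.6 and scipy 1.17.1, and were tested on simulated data. A single row could reach an adjusted p of 0.035 by Pearson's r and of 0.069 by Spearman's rho, where opposite orders tie. Named rows were the endophilins and, among other rows spanning at least 2-fold, the 2 with the highest and the 2 with the lowest Pearson r with SH3GL2. Members and lists were chosen with earlier results of these data known. The correlations with the other 3 endophilins over all rows, the principal component, the line order counts and the level classes were added after values were seen. Alternatives were other scalings, a pseudocount of 1, filters, ranks and omission of each line.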

Additional observations from a re-analysis of the deposited data

How the results depend on the processing

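With each line centred on its median, or with a pseudocount of 1, the SH3GL2 SD was 2.78 to 2.80 log2 units and its range 8.21 to 8.26. In these settings the range was 0.51 for SH3GL1, 0.36 for SH3GLB1 and 0.59 to 0.60 for SH3GLB2. Leaving out each line in turn gave an SH3GL2 range of 4.68 (without Asia) to 8.26 log2 units, an SH3GL1 range of 0.33 (without Ricky) to 0.51, and an SH3GLB2 range of 0.32 (without Asia) to 0.60, since those lines are ends of the ranges. The correlation with SH3GL2 stayed negative for SH3GL1 in every setting run (-0.74 to -0.36). It ran from -0.21 (without Asia) to 0.52 for SH3GLB1 and from -0.59 (without Asia) to 0.66 for SH3GLB2 when a line was left out. For SH3GLB2 it was -0.05 by Spearman's rho and -0.65 without Asia and China, a setting added after the data were seen; the cause was not tested. No setting brought an endophilin past the threshold (adjusted exact permutation p from 0.26 to 1), and none gave a row past it with SH3GL2. Rows at an unadjusted exact permutation p under 0.05 with SH3GL2 numbered 1423 to 2900 with a line left out. They numbered 3236 with no filter, 2011 with a filter of 5 ppm, 1263 by Spearman's rho and 1019 without Asia and China. These counts cannot be compared directly. Without a filter all 15356 rows entered, against 12590 in the main setting, and settings that left out lines rest on fewer values per row. No paired analysis was possible because all lines belong to 1 group. Without the depths, counting error in the low SH3GL2 lines could not be separated from differences between lines.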
